A study of Arabidopsis thaliana with 28 samples.

Results

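Cytochrome P450 genes were followed across 28 single-colour arrays of Arabidopsis thaliana Col-0 seedlings. The genes taken were those whose probe set is assigned to 1 gene with a P450 symbol of the usual form, a family number, a subfamily letter and a gene number. There were 22 such probe sets, each of a different gene, among 22810 on the array. They fell into 5 families: 18 belonged to the CYP71B subfamily, and CYP51G2, CYP78A9, CYP79A2 and CYP84A4 were the others. Most P450 genes of the species were not named on the array here, since the RefSeq gene table lists 225 symbols of this form. The set is therefore largely a view of CYP71B.

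RNA came from the whole aerial parts of seedlings grown for 12 days on agar at 22°C, with the light always on at about 100 µmol photons m-2 s-1. The arrays formed 14 groups of 2. Wild type (WT) kept at 22°C and WT held for 24 h at 4°C made up a cold experiment, in which the light was also dimmer at 4°C (about 30 µmol photons). Temperature and light cannot be told apart in it. The other groups, all grown at 22°C, were 11 lines that each overexpress 1 transcription factor (the cytokinin response factors CRF2 and CRF3, the AP2/ERF superfamily members ERF5, DEAR1 and RAV1, the heat stress factor HSFC1, MYB44 and MYB73 of the MYB family, and the zinc finger proteins CZF1, ZAT10 and ZF, the last with locus AT4G29190). Their labelled control was another WT group. The promoter that drives each transgene, and whether a line is 1 transformant or several, are not given in the sources used here. Replicates are called biological in the labels with no further detail, so p-values measure only the spread between these arrays.

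Cytochrome P450s are haem enzymes that insert an oxygen atom into small molecules, with electrons passed on by a reductase in the endoplasmic reticulum. Plants carry many of them, and they take part in the synthesis of hormones, phenylpropanoids, waxes and defence compounds. The CYP71B genes belong to the plant-specific CYP71 clan and lie partly in tandem rows. PAD3, the enzyme of the last steps of camalexin synthesis, is the member of that subfamily best known in Arabidopsis, and it is not named on the array here. For most of the CYP71B genes described below no substrate is given, because none is known here with certainty.

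Values are log2 signals, which ran from 2.13 to 14.94 over the data set. Levels are given array by array, or as mean ± SD (n = 2 arrays). Changes are differences of log2 group means ± SE from limma, with p-values adjusted by Benjamini-Hochberg over all 15916 probe sets tested, and a change was called at an adjusted p under 0.05. A level of 1 gene cannot be set against that of another, because each probe set has its own response. With 2 arrays a group the precision is limited, and in whole aerial parts fewer cells of a type and less RNA per cell cannot be told apart.

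Some arrays stood apart from the rest. The within-group spread (root mean square SD over probe sets) was 0.707 in CRF3 and 0.382 in DEAR1, against 0.181 to 0.309 in the other groups. The array medians were 5.76 to 5.84 in the cold experiment and CZF1, but 5.33 to 5.48 in the lines' control and the remaining lines. Of the 11 overexpressed factors 1 was named on the array: ZAT10 stood at 12.95 and 12.92 in its own line and at 4.08 and 4.07 in the lines' control, and the highest array of any other group was 8.45. Of 10 leaf markers 3 were named, and the Rubisco activase gene RCA was at 13.18 to 14.24. Of 15 root markers 3 were named. The root hair expansins EXPA7 and EXPA18 had medians of 4.74 and 4.92, and PYK10, a beta-glucosidase of roots and hypocotyls, had a median of 12.16. None of the 4 flower and pollen markers was named.

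The genes split into those with a signal and those without. Of the 22 genes 14 passed the filter (log2 over 4 on at least 2 of the 28 arrays), 13 of them CYP71B genes and 1 of them CYP78A9. The 8 that did not pass were CYP51G2, CYP79A2, CYP84A4 and 5 CYP71B genes (CYP71B16, CYP71B21, CYP71B25, CYP71B31 and CYP71B38). No array of these 8 was above 3.26. CYP79A2, which turns phenylalanine into an oxime for benzylglucosinolate, was at the floor of 2.13 on 25 arrays. CYP84A4, an enzyme of the arabidopyrone pathway, was at 2.23 on 20 arrays and reached 3.23 on 1 array of CZF1. With no filter CYP71B38 (-0.76, adjusted p = 0.00119) and CYP84A4 (0.56, adjusted p = 0.0337) passed in CZF1, and CYP71B38 in MYB44 (-0.59, adjusted p = 0.0488), all at signals no higher than 3.26. CYP71B38 also passed between the 2 WT groups at 22°C (-0.58, adjusted p = 0.00692), and its highest group mean, 2.99, was in the lines' control. CYP51G2, a relative of the sterol demethylase gene CYP51G1 that RefSeq lists as a transcribed pseudogene, was at 2.74 on 21 arrays.

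Among the 14 genes with a signal, CYP71B6 had the highest mean over the 28 arrays. It encodes an enzyme that acts on indole-3-acetonitrile, and its signal ran from 7.19 to 9.60 with a median of 7.85. CYP71B26 came next, from 6.29 to 9.85 with a median of 7.67, and its group means spanned 3.46, the widest range of the set. CYP71B28 (5.73 to 7.47), CYP71B35 (4.55 to 6.53) and CYP71B5 (4.66 to 7.49) were above 4 on all 28 arrays as well. CYP71B29 had the narrowest range of group means, 1.08.

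Other genes counted as having a signal were not over 4 on most arrays. CYP71B37 was over 4 on 2 arrays, the second replicates of CZF1 and DEAR1 (5.01 and 4.55). CYP71B27, which RefSeq lists as a transcribed pseudogene, was over 4 on 3, with a median of 3.0. CYP71B27 would not have passed the filter without the ERF5 arrays, nor CYP71B37 without those of CZF1 or DEAR1. CYP71B22 was over 4 on 9 arrays and CYP78A9 on 11.

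**Figure D1:**
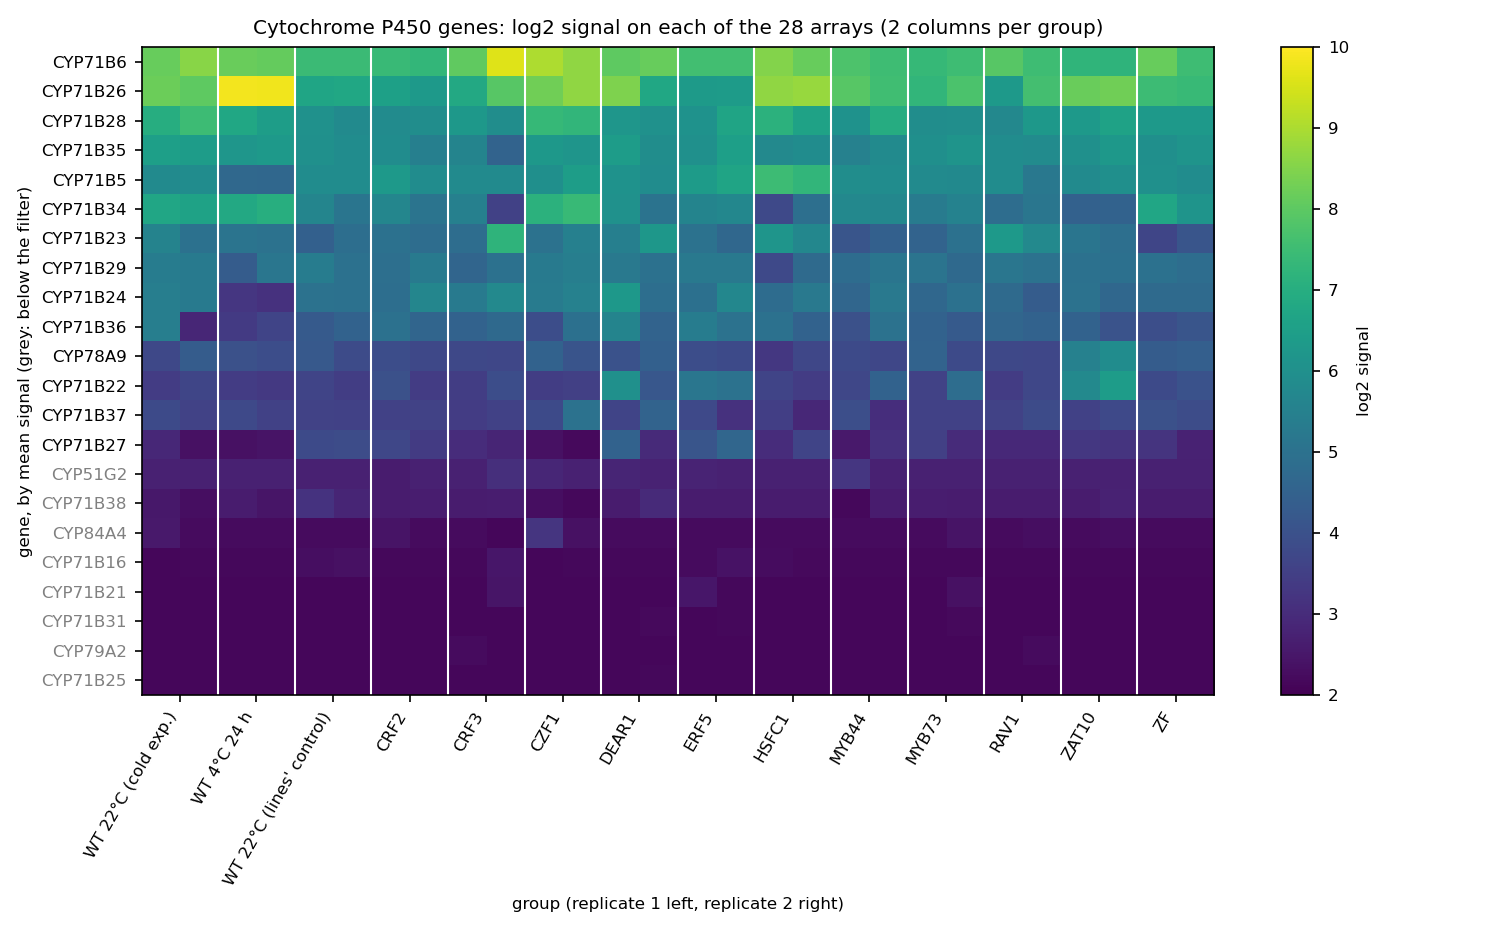
Log2 signal of the 22 P450 genes (rows, ordered by mean signal) on the 28 arrays (columns, 2 per group). The 8 genes with names in grey did not pass the filter, and no array of these 8 was above 3.26, while CYP71B26 is at 9.85 and 9.83 in WT at 4°C.

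Over the cold comparison and the 11 lines there were 16 calls in 11 of the 14 genes, 11 of them higher and 5 lower. These are 9.52% of the tests of these genes, beside 8.14% of the tests of all probe sets. The share of all probe sets called in any of the 12 comparisons was not counted, so the 11 of 14 genes have no background here. The 16 calls lay in the cold, CRF3, CZF1, HSFC1 and ZAT10. Of the calls over all probe sets, 51.7% were higher in the cold and 67.3% in CRF3. In CZF1 89.4% of them were higher, in HSFC1 56.3% and in ZAT10 54.4%. CYP71B23, CYP71B36 and CYP71B37 had no call in any of these 12 comparisons. In 7 lines limma called none of the 14 genes. Without adjustment 2 genes had p under 0.05 in each of DEAR1, ERF5, MYB44, RAV1 and ZF, and 0 in CRF2 and MYB73. Those 2 genes are 14.3% of the 14, while the unadjusted share over all probe sets was 9.36% in DEAR1, 9.06% in ERF5, 14.6% in MYB44, 4.61% in RAV1 and 22.3% in ZF, and 6.19% in CRF2 and 2.81% in MYB73.

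**Figure D2:**
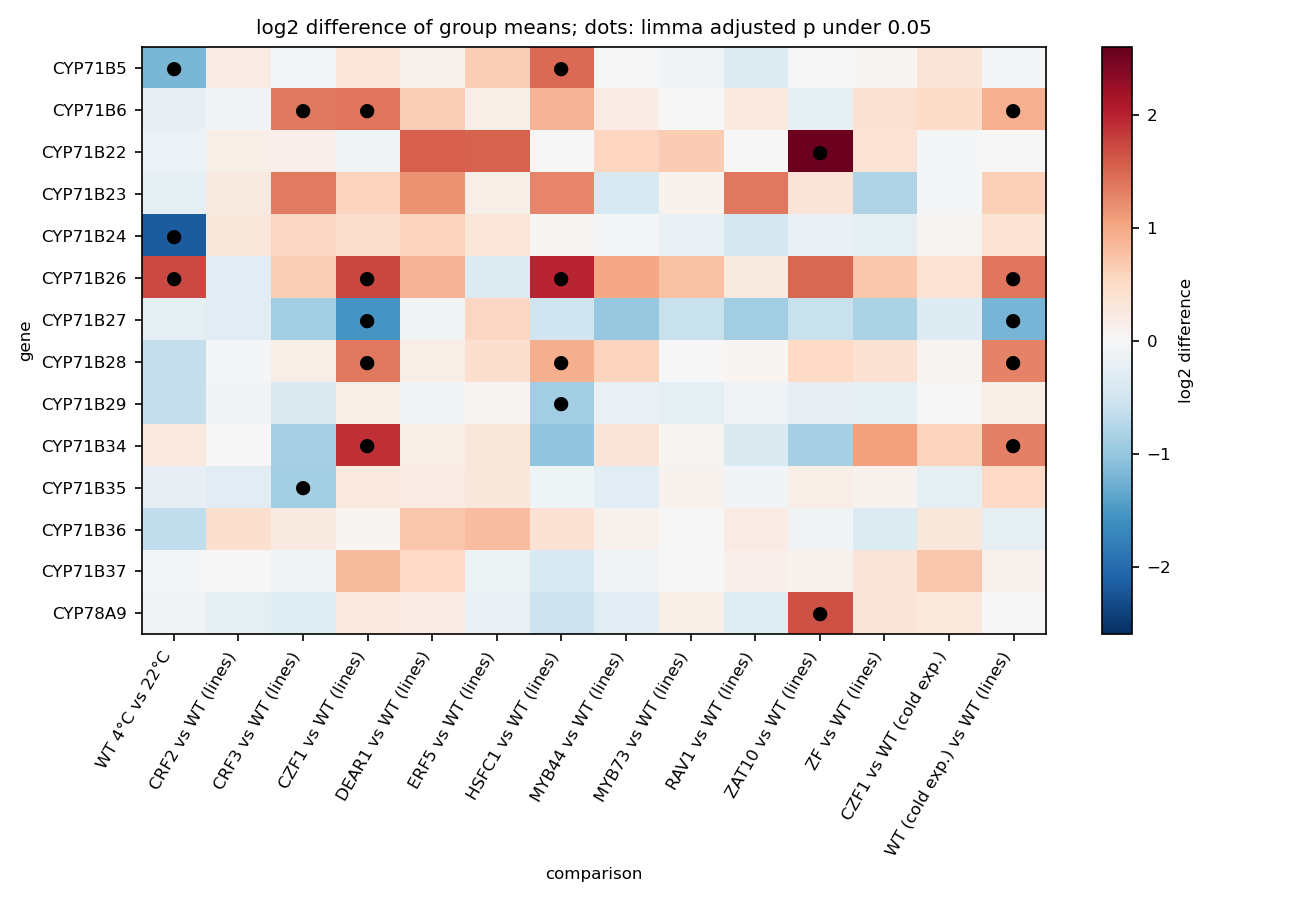
Log2 differences of group means for the 14 genes that passed the filter (rows) in 14 comparisons (columns), red higher and blue lower than the control, with a dot where the limma adjusted p was under 0.05. CYP71B5 is blue in the cold (-1.19) and red in HSFC1 (1.47), and CYP71B22 has its dot in ZAT10 (2.54).

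The first question was how the P450 genes responded to 24 h at 4°C. CYP71B26 rose 3.31-fold, while CYP71B24 fell by 2.16 and CYP71B5 by 1.19 on the log2 scale. The other 11 genes did not pass. The 3 of 14 genes called (21.4%) compare with 27.2% of all probe sets tested (14.1% higher and 13.1% lower), so the P450 genes were not called at a higher rate than the array as a whole. Their median change was -0.22, against -0.03 over all probe sets.

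CYP71B26 (AT3G26290) was at 8.20 and 8.03 in WT at 22°C and at 9.85 and 9.83 in the cold, a change of 1.72 ± 0.43 (adjusted p = 0.00589). Both cold arrays were above all other 26 arrays of the data set. The groups did not overlap, and leaving out any of the 4 arrays kept the call (limma adjusted p 0.0284 to 0.0448).

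CYP71B24 (AT3G26230) went from 5.42 and 5.28 to 3.25 and 3.13, a change of -2.16 ± 0.36 (adjusted p = 0.00021). The cold arrays were the lowest of all 28, and in every other group both arrays were between 4.32 and 6.25. CYP71B5 (AT3G53280) went from 5.84 and 5.90 to 4.70 and 4.66, a change of -1.19 ± 0.21 (adjusted p = 0.00033). Here too the cold arrays were the lowest of the 28. Both genes kept their calls with each array left out (adjusted p up to 0.00401 and 0.00507), and all 3 cold calls held against the other WT group, where the differences were 3.11 for CYP71B26, -1.81 for CYP71B24 and -1.22 for CYP71B5. With that control CYP71B27 (-1.44) and CYP71B34 (1.56) passed as well, which made 5 genes (35.7%), beside 47.0% of all probe sets called against it.

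Among genes not called in the cold, CYP71B36 had 5.43 and 2.85 in WT at 22°C, an SD of 1.82 that was the widest of any P450 gene in any group. The cold arrays, at 3.35 and 3.65, lay between these values. Without the second of the WT arrays CYP71B36 passed (-1.93, adjusted p = 0.00626), and without the second cold array CYP71B29 passed (-0.99, adjusted p = 0.0339). CYP71B28 was at -0.62 ± 0.27 (adjusted p = 0.108), and CYP71B6 at -0.22 (adjusted p = 0.685). CYP78A9, a regulator of the growth of seed coats and fruits, was at 3.72 and 4.33 in WT and at 3.98 and 3.90 in the cold (-0.09, adjusted p = 0.848).

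**Figure D3:**
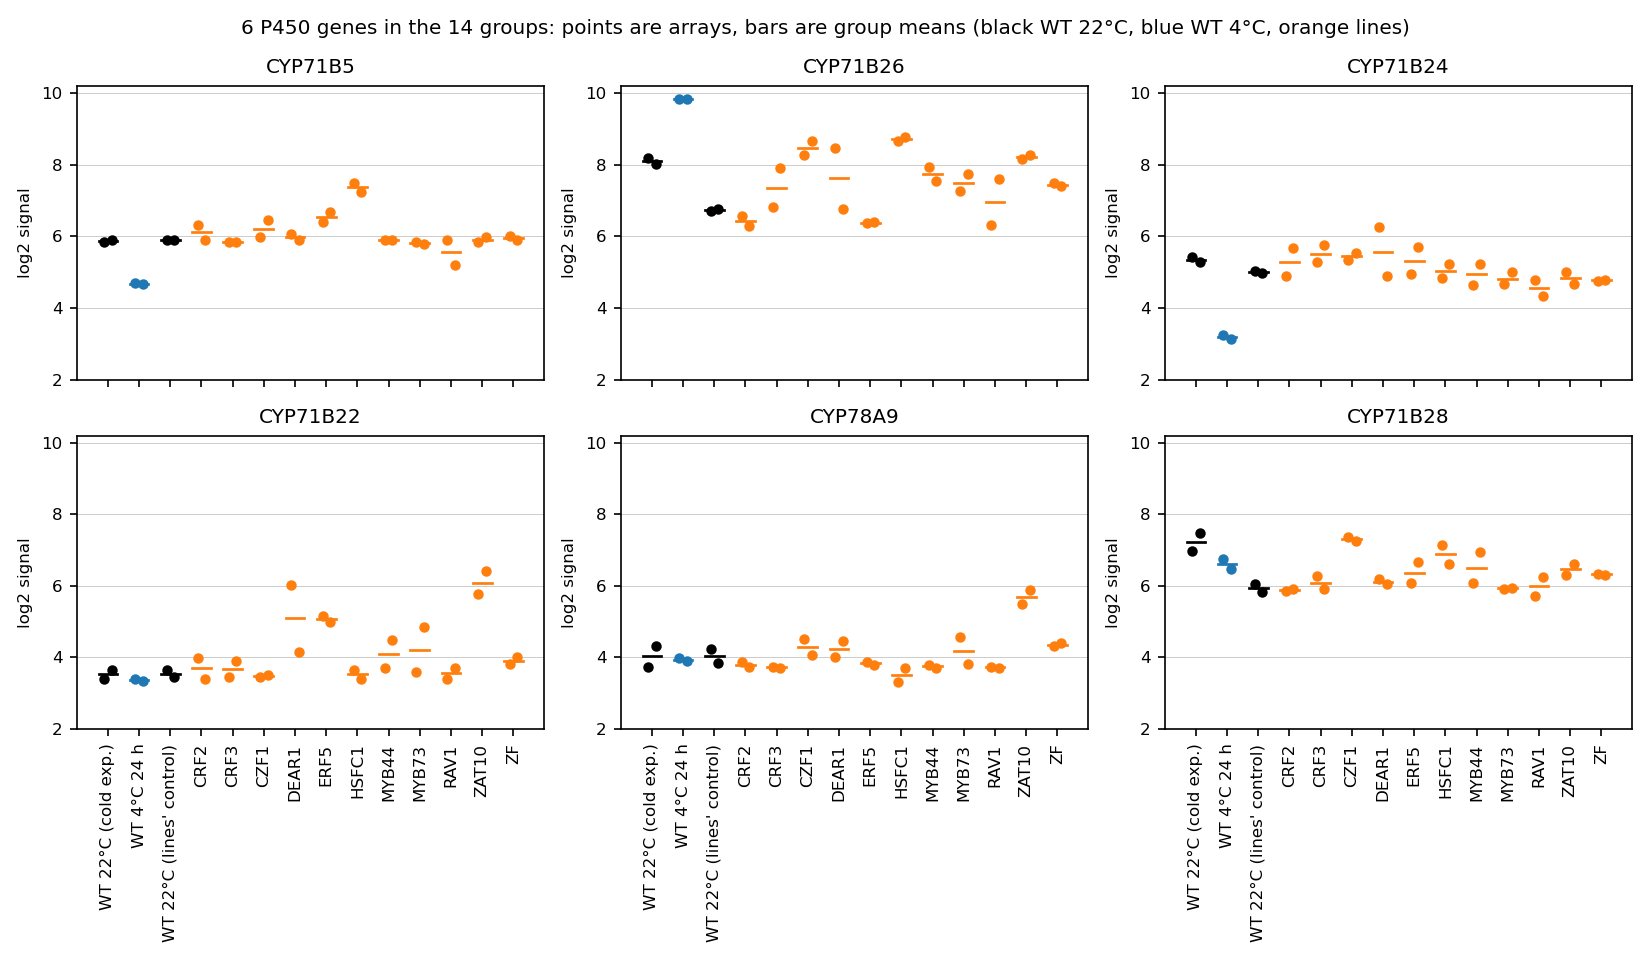
Log2 signal of 6 P450 genes in the 14 groups; each point is 1 array and each bar the mean of 2 (black WT at 22°C, blue WT at 4°C, orange lines). CYP71B5 and CYP71B24 are lowest in the cold, CYP71B26 is highest there, CYP71B5 is highest in HSFC1, and CYP71B22 and CYP78A9 have their highest group means in ZAT10.

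The second question was how each overexpressor differed from WT. HSFC1 encodes a class C heat stress factor, and its line had 4 of 14 P450 genes called (28.6%), against 11.8% of all probe sets (6.66% higher and 5.18% lower). CYP71B5, CYP71B26 and CYP71B28 were higher and CYP71B29 was lower. The median change of the 14 genes was 0.01, against -0.02 over all probe sets. Of 3 control genes with 3' and 5' probe sets, GAPDH had a 3' over 5' gap of 1.63 and 1.78 in HSFC1 beside 0.75 and 0.91 in the control, ubiquitin 1.66 and 1.71 beside 1.27 and 1.2, and actin 5.54 and 5.59 beside 5.42 and 5.40. The GAPDH gap was also 1.42 and 1.44 in CZF1, 2.04 and 1.81 in CRF3 and 1.48 and 0.99 in ZAT10. Among the lines with 0 calls it was 1.86 and 1.15 in CRF2, 1.43 and 1.31 in MYB44 and 1.27 and 1.43 in ERF5. DEAR1, also with 0 calls, had GAPDH gaps of 1.37 and 1.29. For GAPDH the remaining lines with 0 calls were nearer the control, at 0.92 and 0.86 in MYB73, 1.1 and 0.94 in RAV1 and 0.99 and 0.95 in ZF. Ubiquitin gaps were 1.16 and 1.35 in CZF1, 1.41 and 1.74 in CRF3 and 1.53 and 1.3 in ZAT10. Among lines with 0 calls they were 1.75 and 1.47 in CRF2, 1.56 and 1.78 in DEAR1, 1.61 and 1.52 in ERF5 and 1.51 and 1.43 in MYB44. In MYB73 they were 1.25 and 1.26, in RAV1 1.48 and 1.23 and in ZF 1.47 and 1.69. In the cold experiment the GAPDH gap was 1.11 and 1.83 in the WT control and 1.3 and 1.23 in the cold. In CZF1 actin was below the control, at 4.76 and 5.11. The part of these gaps in the calls was not tested.

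CYP71B5 was at 7.49 and 7.25 in HSFC1 and at 5.90 on both control arrays, a 2.77-fold rise (1.47 ± 0.21, adjusted p = 9.48e-05). The 2 HSFC1 arrays were the highest of the 28 for this gene. HSFC1 was also higher than each of the other 10 lines, by 0.84 over ERF5 to 1.82 over RAV1 (limma adjusted p 8.61e-06 to 0.0135, where 10.5% to 44.5% of all probe sets were called). The call was kept against the other WT group (1.5) and with each array left out (adjusted p up to 0.00386). The 5.90 of the control recurred on 8 of the 28 arrays to the second decimal, so that the SD of 0.00 in the control gives little information on the spread of this gene.

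CYP71B5 thus fell in the cold and rose in HSFC1, and these comparisons have no array in common. The cold change minus the HSFC1 change was -2.66 ± 0.30 (adjusted p = 5.56e-06, with 18.5% of all probe sets called in this contrast). CYP71B24 (-2.20 ± 0.51, adjusted p = 0.00549) and CYP71B28 (-1.56 ± 0.39, adjusted p = 0.00861) were the other genes of the 14 to pass it. CYP71B24 stood at 4.83 and 5.24 in HSFC1, beside 5.02 and 4.98 in the control (0.04, adjusted p = 0.982).

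CYP71B26 rose in HSFC1 from 6.70 and 6.76 to 8.66 and 8.78 (1.99 ± 0.43, adjusted p = 0.00436). It was the gene called higher both there and in the cold, and the cold change minus the HSFC1 change was -0.27 ± 0.61 (adjusted p = 0.812), a difference whose error leaves room for unequal changes. HSFC1 was above 5 of the other 10 lines for this gene and did not pass against CZF1, DEAR1, MYB44, MYB73 and ZAT10. The rise depended on the WT group: against the WT of the cold experiment, at 8.20 and 8.03, it was 0.60 (adjusted p = 0.262).

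CYP71B28 (AT1G13090) was at 7.14 and 6.62 in HSFC1 and 6.05 and 5.83 in the control (0.94 ± 0.27, adjusted p = 0.0299), but against the other WT group, at 6.98 and 7.47, it was at -0.35 (adjusted p = 0.316). CYP71B29 (AT1G13100), its direct neighbour on chromosome 1, was at 3.77 and 4.76, below 5.37 and 4.98 in the control (-0.91 ± 0.28, adjusted p = 0.0391). Both calls were lost without replicate 1 of HSFC1 or either control array, where a smaller share of all probe sets was called as well. With each array left out the differences ranged from 0.68 to 1.20 in CYP71B28 and from -1.41 to -0.42 in CYP71B29. CYP71B23 (1.27, adjusted p = 0.0966), CYP71B6 (0.89, adjusted p = 0.0947) and CYP71B34 (-1.02, adjusted p = 0.174) did not pass. These 3 genes passed when the CRF3 arrays were kept out of the fit (adjusted p = 0.00372, 0.00506 and 0.0367). That made 7 genes, in a fit where the share of all probe sets called rose as well, from 11.8% to 19.6%. Against the other WT group the calls in HSFC1 were 1 higher (CYP71B5) and 2 lower, CYP71B29 (-1.06, adjusted p = 0.00495) and CYP71B34 (-2.33, adjusted p = 0.000661), where 45.3% of all probe sets were called.

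In the ZAT10 line 2 of 14 P450 genes were called (14.3%), both higher, against 4.66% of all probe sets (2.53% higher and 2.12% lower). CYP78A9 (AT3G61880) rose 3.16-fold and CYP71B22 (AT3G26200) 5.82-fold. The median change of the 14 genes was 0.04, against 0.07 over all probe sets.

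CYP78A9 was at 5.50 and 5.89 in ZAT10 and at 4.23 and 3.84 in the control (1.66 ± 0.25, adjusted p = 0.000999). The highest value on any other array was 4.56, in MYB73. ZAT10 was higher than each of the other 10 lines, by 1.33 over ZF to 2.18 over HSFC1 (limma adjusted p 6.2e-06 to 0.00241, where 2.88% to 30.2% of all probe sets were called, with 5.87% against CRF2 and 8.15% against MYB44). The difference from the WT of the cold experiment was 1.67, and the call was kept with each array left out (adjusted p up to 0.0247).

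CYP71B22 was at 5.76 and 6.41 in ZAT10 and at 3.64 and 3.45 in the control (2.54 ± 0.45, adjusted p = 0.00313). ZAT10 was higher than 8 of the other 10 lines. It did not pass against ERF5, at 5.15 and 5.0 (difference 1.01 ± 0.45, adjusted p = 0.174, with 9.22% of all probe sets called), or DEAR1, at 6.03 and 4.16 (difference 0.99 ± 0.45, adjusted p = 0.207, with 6.75% called). In order of group mean the gene stood at 6.08 in ZAT10, 5.10 in DEAR1, 5.08 in ERF5 and 4.22 in MYB73, and at 3.38 in the cold, the lowest. The ZAT10 call was lost without ZAT10 replicate 2, where the difference was 2.21 and a smaller share of all probe sets was called as well.

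CYP71B26 was at 8.16 and 8.27 in ZAT10, above both control arrays, but did not pass (1.49 ± 0.43, adjusted p = 0.0556). It passed with the filter at 6 (adjusted p = 0.0475), with only the arrays compared (adjusted p = 0.0369) and without the CRF3 arrays (adjusted p = 0.0201). Against the WT of the cold experiment, at 8.20 and 8.03, the difference was 0.10 (adjusted p = 0.894). With that control CYP71B6, CYP71B28 and CYP71B34 were lower in ZAT10 (-1.15, -0.77 and -2.17), which made 5 calls, beside 29.3% of all probe sets.

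ERF5 and DEAR1 had 0 of 14 genes called by limma, against 0.0817% and 0.251% of all probe sets. CYP71B22 was higher by 1.53 in ERF5 (adjusted p = 0.231) and by 1.55 in DEAR1 (adjusted p = 0.185), with both arrays of each line above both control arrays. Against the other WT group, with values near those of the control (3.41 and 3.66), the differences were nearly the same, 1.54 in ERF5 and 1.56 in DEAR1. They passed there (adjusted p = 0.0129 and 0.0141), where 37.6% and 33.7% of all probe sets were called. The DEAR1 arrays differed widely in several of these genes: CYP71B26 was at 8.46 and 6.77, CYP71B24 at 6.25 and 4.88, and CYP71B27 at 4.52 and 2.95. In each of these genes, and in CYP71B22, replicate 1 was the higher array, while in CYP71B23 it was the lower (5.45 and 6.24). Without DEAR1 replicate 2, CYP71B22 (2.48, adjusted p = 0.00434) and CYP71B26 (1.73, adjusted p = 0.0402) passed.

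In CRF3, a cytokinin response factor line, 2 of 14 genes were called (14.3%), against 8.6% of all probe sets (5.79% higher and 2.81% lower). CYP71B6 was higher, at 8.04 and 9.60 beside 7.44 and 7.45 in the control (1.38 ± 0.33, adjusted p = 0.0216). CYP71B35 (AT3G26310) was lower, at 5.61 and 4.55 beside 6.02 and 5.90 (-0.88 ± 0.26, adjusted p = 0.0457). Against the other WT group, at 8.14 and 8.58, CYP71B6 was at 0.46 (adjusted p = 0.279), and the genes called were 3 lower ones (CYP71B28, CYP71B34 and CYP71B35), beside 42.0% of all probe sets. For both genes called against the control, replicate 2 was farther from the control than replicate 1. Without replicate 2 CYP71B6 was at 0.59 and CYP71B35 at -0.35, and without replicate 1 they were at 2.15 and -1.41. In that last fit CYP71B23 was at 2.52 and CYP71B34 at -1.83. With only the CRF3 and control arrays in the fit, 0 of the 14 genes passed, beside 0% of all probe sets. Without replicate 1 of the control CYP71B6 was at 1.37 and CYP71B35 at -0.82, and without replicate 2 they were at 1.38 and -0.94. Both calls were lost in these fits, where few of all probe sets passed.

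The related factor CRF2 gave 0 of 14 genes called, as did MYB73, each against 0% of all probe sets, and RAV1 gave 0 of 14 against 0.00628%. In CRF2 the differences ran from -0.30 in CYP71B26 to 0.42 in CYP71B36. In MYB44 0 of 14 were called, against 1.69%. CYP71B26 was at 7.93 and 7.54 there (1.01, adjusted p = 0.278), above both control arrays. In ZF 0 of 14 were called, against 7.12%. CYP71B34 was at 6.74 and 6.14 in ZF and 5.63 and 5.11 in the control (1.07, adjusted p = 0.174), and CYP71B23 at 3.67 and 4.11 beside 4.46 and 4.88 (-0.78, adjusted p = 0.368). In RAV1, CYP71B23 was at 6.33 and 5.75 (1.37, adjusted p = 0.927).

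CZF1 had the most calls against its labelled control, 5 of 14 (35.7%), against 36.3% of all probe sets (32.4% higher and 3.85% lower). CYP71B34, CYP71B26, CYP71B6 and CYP71B28 were higher and CYP71B27 was lower. The CZF1 arrays shared their high medians with the cold experiment, and the median difference of all probe sets from the lines' control was 0.43. The WT of the cold experiment, set against the lines' control, showed a median shift of 0.42 and also 5 calls of 14 (35.7%), against 33.9% of all probe sets (30.2% higher and 3.74% lower), though the 2 groups have the same genotype and growth in the labels. Both comparisons use the same control arrays, so their values are given side by side.

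CYP71B34 (AT3G26300) was higher by 1.89 in CZF1 and by 1.31 in that WT (adjusted p = 0.00481 and 0.0364). CYP71B26 was higher by 1.74 and 1.39 (adjusted p = 0.00527 and 0.021), CYP71B6 (AT2G24180) by 1.40 and 0.92 (adjusted p = 0.00401 and 0.0411), and CYP71B28 by 1.37 and 1.29 (adjusted p = 0.00127 and 0.00243). CYP71B27 (AT1G13070) was lower in both, at -1.54 and -1.2 (adjusted p = 0.00384 and 0.0178). All arrays compared for it were under the filter of 4. They read 2.37 and 2.21 in CZF1, 2.88 and 2.37 in that WT and 3.81 and 3.85 in the control. In CZF1 the call of CYP71B34 was lost without the second control array (adjusted p = 0.0507), and the other 4 were kept with each array left out. In the WT comparison CYP71B28 kept its call with each array left out (adjusted p up to 0.039), CYP71B27 kept it in 1 of 4 such fits, and CYP71B6, CYP71B26 and CYP71B34 in 0 of 4 (adjusted p up to 0.236, 0.0982 and 0.199).

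Set directly against the WT of the cold experiment, CZF1 had 0 of 14 genes called by limma, against 1.04% of all probe sets. Without adjustment it was also 0, against 11.2% of all probe sets. The largest differences were 0.71 in CYP71B37, where the 2 CZF1 arrays read 3.80 and 5.01, and 0.58 in CYP71B34. After quantile normalization 2 of 14 genes passed in CZF1 against its labelled control, beside 14.4% of all probe sets. They were 1 higher (CYP71B28, 0.91) and 1 lower (CYP71B27, -1.49). With each array centred on its median 3 passed, 2 higher and 1 lower, beside 17.2%. In the WT comparison these settings left 0 genes and 1 gene, beside 10.4% and 13.1% of all probe sets.

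On chromosome 3 the RefSeq order of genes holds a run from CYP71B16 to CYP71B37 of 24 genes, 18 of them with a P450 symbol, of which 11 are in this set. CYP71B16, CYP71B21 and CYP71B25 in this run gave no signal, and 8 did. CYP71B22 and CYP71B23 are direct neighbours, yet in ZAT10 the first rose by 2.54 and the second, at 0.33, did not pass (adjusted p = 0.783). In the cold, CYP71B24 was at -2.16 and CYP71B26 at 1.72. CYP71B34, CYP71B35, CYP71B36 and CYP71B37 follow each other directly at the end of the run. In the reported fit they had no call in the cold, HSFC1 or ZAT10. For CYP71B34 this depended on the WT group. Against the other WT it passed in the cold (1.56), HSFC1 (-2.33) and ZAT10 (-2.17), beside 47.0%, 45.3% and 29.3% of all probe sets.

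**Figure D4:**
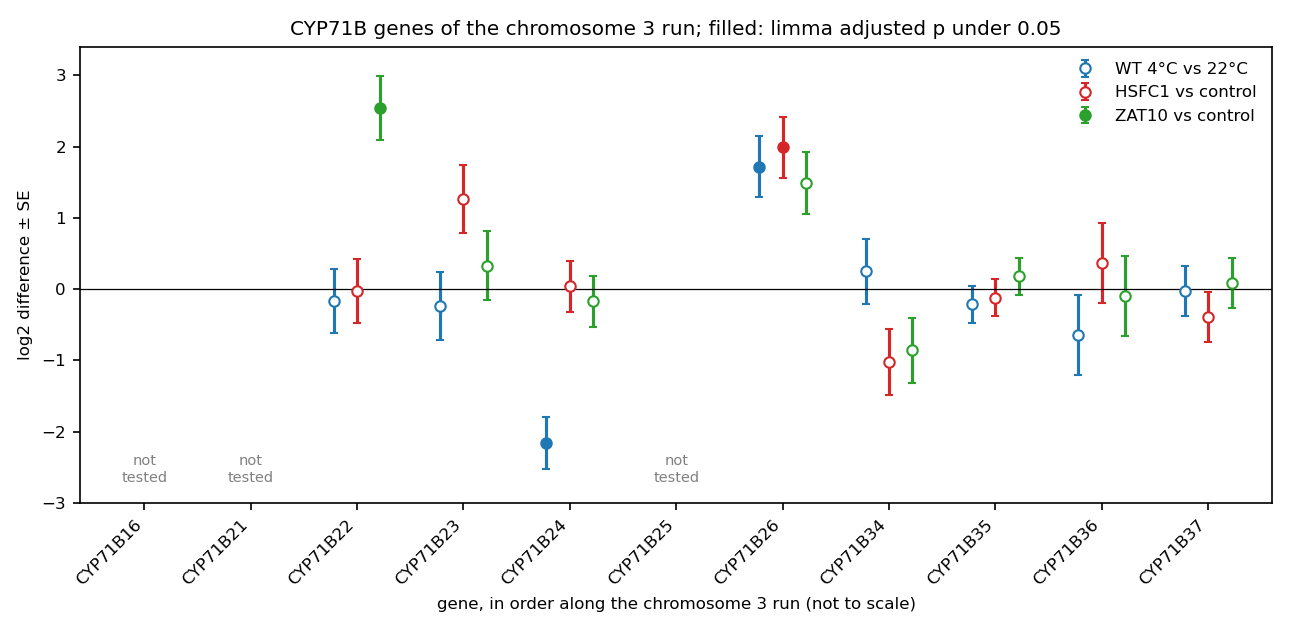
Log2 differences ± SE of the 11 CYP71B genes of the chromosome 3 run, in their order along the chromosome, for the cold (blue), HSFC1 (red) and ZAT10 (green). Filled points passed at an adjusted p under 0.05: CYP71B22 in ZAT10 (2.54), CYP71B24 in the cold (-2.16) and CYP71B26 in the cold and HSFC1 (1.72 and 1.99).

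On chromosome 1, CYP71B27, CYP71B28 and CYP71B29 lie within 4 adjacent P450 genes, and in HSFC1 they were at -0.51, 0.94 and -0.91. On chromosome 3, CYP71B5 lies within a stretch of 4 genes with CYP71B31, and CYP71B31 stayed between 2.13 and 2.21 on all 28 arrays while CYP71B5 moved in the cold and in HSFC1. No probe set of the 22 carries a suffix that marks probes shared between genes, but cross-hybridisation between such close relatives was not tested.

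Other genes around P450 metabolism could be followed only in part. Of 123 genes listed for electron donors, glucosinolates, camalexin, brassinosteroids, abscisic acid, cytokinins and gibberellins, jasmonate, phenylpropanoids, cutin, carotenoids and triterpenes, and P450 genes with other names, 4 were named by a probe set of 1 gene. These are named here after their values were seen. UGT74B1, the glucosyltransferase of glucosinolate synthesis, fell in 3 of the 12 comparisons and rose in 0: -1.19 in the cold, -1.11 in HSFC1 and -1.2 in ZF on the log2 scale (adjusted p = 0.01, 0.0287 and 0.0298). BCAT4, an aminotransferase at the start of the methionine-derived branch, fell in 1 (HSFC1, -2.02, adjusted p = 0.000791). HCT, an acyltransferase of lignin synthesis, fell in 1 (the cold, -0.90, adjusted p = 0.0121). ATR3, a diflavin reductase, passed in 0 of the 12 (from -0.10 in CRF2 to 0.69 in CRF3).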

How the data were processed

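The values are log2 signals as the authors deposited them. Per the submitters' processing notes, GCRMA and limma were used, with no version or role stated. How arrays were centred is not stated in those notes. The P450 genes and gene lists were chosen with earlier results of these data known.

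Of 22810 probe sets the 64 array controls were left out. The platform annotation names 1 gene for 13513 and several for 503. All 22 P450 symbols were the same in the RefSeq table (assembly TAIR10.1), used for names and gene order. Probe sets with log2 over 4 on at least 2 of 28 arrays were tested (15916). The 14 group means were fitted together in limma 3.58.1 (R 4.3.3; 14 residual degrees of freedom), with Benjamini-Hochberg adjustment within each comparison and a threshold of 0.05. Groups were read from source names. Their MYB44 and MYB73 stand as MYB4 and MYB7 in the titles. The contrasts of the cold with the lines, and of ZAT10 and HSFC1 with other lines, were added after values were seen. The fit was tested on simulated data sets, each with 200 of 15916 probe sets changed in the cold, ZAT10 or HSFC1 group. Means and spread of a probe set were the same in all groups, so these sets differ only by the random draw. Of changes of 1 on the log2 scale the fit called 35%, 51% and 47%, and of changes of 2 it called 91%, 90% and 87%. These shares do not rank the comparisons by sensitivity. In the data the spread was unequal between groups, and 27.2% of probe sets were called in the cold and 4.66% in ZAT10. A gene that was not called may still have changed.

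The genes named are up to 14 rises and 14 falls past the threshold in the cold and 6 of each in a line, the 6 of highest mean, the 6 of widest range over groups, and, as values, others of their subfamily. Alternatives were a fit of the groups compared, no CRF3 arrays, no filter or a filter at 6, quantile normalization, median centring, a replicate block, the other WT as control, updated symbols, and leaving out each array. Sequences were not used here.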

Additional observations from a re-analysis of the deposited data

How the results depend on the processing

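Of 177 counts of P450 genes called under an alternative, 141 stayed within 1.5 times the reported count. Many of these were 0 beside a reported 0, as in CRF2 and MYB73, where the reported fit called 0% of all probe sets. A count within that range can also hold other genes. With the other WT, CRF3 went from 1 higher and 1 lower to 0 and 3, beside 42.0% of all probe sets. HSFC1 went from 3 higher and 1 lower to 1 and 2, beside 45.3%. The 141 is therefore no measure of how stable the calls are. With the other WT as control the count was 5 in the cold, CRF2, ERF5 and ZAT10, 3 in DEAR1, 2 in MYB73, RAV1 and ZF, 1 in MYB44 and 0 in CZF1. Under that control 47.0% of all probe sets were called in the cold, 33.2% in CRF2, 37.6% in ERF5, 29.3% in ZAT10, 33.7% in DEAR1, 30.1% in MYB73, 24.8% in RAV1, 28.9% in ZF, 21.1% in MYB44 and 1.04% in CZF1. With only the groups compared the count was 0 in CRF3, 2 in HSFC1 and 1 in ZF, beside 0%, 7.78% and 8.26% of all probe sets. Without the CRF3 arrays it was 1 in DEAR1, 7 in HSFC1 and 1 in ZF, beside 2.48%, 19.6% and 14.8%. Without the filter it was 1 in CRF3 and in MYB44, beside 3.68% and 1.07%. After quantile normalization it was 2 in CZF1 and 0 in WT against WT, beside 14.4% and 10.4% of all probe sets. With median centring it was 3 and 1, beside 17.2% and 13.1%. With each array left out it ranged from 3 to 4 in the cold, 0 to 4 in CRF3, 4 to 6 in CZF1, 0 to 2 in DEAR1, 2 to 4 in HSFC1, 1 to 2 in ZAT10 and 1 to 3 in WT against WT, and was 0 in CRF2, ERF5, MYB44, MYB73, RAV1, ZF and CZF1 against the WT of the cold experiment. Where the count varied, the share of all probe sets called also moved in these fits, which leave 1 array in a group. It fell in every such fit of the cold, CZF1, HSFC1, ZAT10 and WT against WT. In CRF3 it rose without CRF3 replicate 1, and in DEAR1 without DEAR1 replicate 2. It fell in the other fits of both lines. The part of this shift in the counts was not tested. The replicate block gave a count of 1 in CRF3, beside 7.88% of all probe sets, and CYP71B35 lost its call there. Same-numbered arrays did not deviate together over the probe sets tested (correlations of deviations -0.05 to 0.09). These values do not settle whether such arrays were handled together, which the labels do not state. The other counts were the same under the block. Of 172 values of called genes under the other alternatives, 141 kept their call, 30 lost it and 1 changed sign (CYP71B28 in HSFC1, -0.35 against the other WT), and with an array left out 55 of 84 kept it. The updated symbols left all 22 genes the same, so 12 of the counts and 16 of the values could not move. The causes of the losses were not tested. Signals near the floor and 2 arrays per group limit what can be called.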
